A study of Mus musculus with 18 samples.

Results

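The circadian clock genes described here are the 10 mouse genes Arntl, Clock, Per1, Per2, Per3, Cry1, Cry2, Nr1d1, Nr1d2 and Dbp, taken by their symbols from the 54532 genes of each count table. All 10 passed the filter on low counts in every comparison. The counts came from cones, the photoreceptors of daylight and colour vision, sorted from wild-type mouse retinas by a green fluorescent histone (H2BGFP). A single retina gave the 1000 cones behind each of the 18 libraries, and their cDNA was amplified over its full length by an adapted form of Smart-Seq2. The 12 BALB/c libraries, 6 control and 6 Txnip, came from albino mice at postnatal day 21 (P21), and the 6 C57BL/6J libraries, 3 control and 3 Txnip, came from pigmented mice at P35. Txnip retinas had received AAV8-RedO-Txnip, in which the red opsin promoter drives the thioredoxin-interacting protein gene Txnip, together with AAV8-SynP136-H2BGFP, and control retinas had received AAV8-SynP136-H2BGFP alone. Every retina was thus injected with an AAV vector at birth, and C57BL/6J mice from Jackson also carry a null allele of the mitochondrial gene Nnt. Strain, age, pigmentation, supplier and any sequencing run changed together, so a difference between the C57BL/6J and BALB/c libraries cannot be told apart as one of strain or of age. The time of day at which retinas were taken is not given in the sources used here, nor is which retinas came from the same mouse. The p-values therefore measure the spread between these libraries, which may be partly technical.

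The mammalian clock is a feedback loop of transcription. The proteins of Arntl (also called Bmal1) and Clock bind as a pair to E-box DNA and switch on the Per and Cry genes, whose proteins return to the nucleus and inhibit that pair. A second loop runs through Nr1d1 and Nr1d2, which encode the nuclear receptors REV-ERB alpha and beta; they are switched on by the same pair and repress Arntl by competing with ROR receptors at ROR elements. Dbp, an output of the loop, encodes a transcription factor that binds D-box elements, which occur among others in Per genes. In such a loop the transcripts of Arntl lie in opposite phase to those of Dbp, Nr1d1 and the Per genes. Photoreceptors are among the retinal cells that carry a clock, and the clock times the use of many of their genes over the day.

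These elements can be read in the promoters of some of the 10 genes. The sequences are from RefSeq on GRCm38.p6, which held windows of 300 bases (250 before and 50 after a start) in the table used here for 9 of the 10 genes (all but Per2), 13 windows in all. Both strands were searched for 5 motifs, the E-box CACGTG, the D-boxes TTATGTAA and TTACGTAA, the ROR element TAGGTCA and the cAMP response element TGACGTCA. Of 32851 promoter windows, 7.15% held the E-box, 0.938% and 0.119% the D-boxes, 2.61% the ROR element and 1.79% the cAMP response element. Matches were found in 4 genes and are shown because they carry the elements that name the arms of the loop. Capitals mark the match, and sequences run 5′ to 3′ on the strand of the gene. The Per3 stretch is chr4:151044766-151044915 (minus strand), the Per1 stretch chr11:69098711-69098860 (plus strand) and the Cry1 stretch chr10:85185055-85185204 (minus strand), each of 150 bases ahead of a start. The Arntl stretch, chr7:113207529-113207558 (plus strand), holds 30 bases just after one of its starts.
Per3: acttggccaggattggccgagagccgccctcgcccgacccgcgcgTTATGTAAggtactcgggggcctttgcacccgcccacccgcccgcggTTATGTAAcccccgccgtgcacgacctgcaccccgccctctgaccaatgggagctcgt
Per1: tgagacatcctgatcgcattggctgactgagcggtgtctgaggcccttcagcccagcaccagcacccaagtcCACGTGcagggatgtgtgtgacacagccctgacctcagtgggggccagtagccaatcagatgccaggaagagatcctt
Cry1: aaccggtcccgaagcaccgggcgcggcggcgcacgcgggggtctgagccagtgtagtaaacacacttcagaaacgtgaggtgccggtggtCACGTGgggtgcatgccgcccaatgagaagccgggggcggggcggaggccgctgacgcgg
Arntl: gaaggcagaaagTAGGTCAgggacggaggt
The Per3 window held 2 D-boxes, which start 205 and 158 bases ahead of the start (written -205 and -158 from the start). The E-box lay at -166 in Per1 and at -60 in Cry1. The ROR element lay at 30 in one of the 2 Arntl windows. A match is a description of the letters and does not show that a factor binds there.

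The libraries held 647712 to 5172156 counted read pairs (median 2886629). The vector was checked first. Txnip was at 0 to 1.48 CPM (counts scaled to a common normalized library size) in the 9 control libraries and at 821 to 1969 CPM in the 9 Txnip libraries. All 12 cone markers had counts in every library and took 3.79% to 9.95% of all counts. Rod markers, which include Sag, a gene that cones also use, took 0.845% to 2.28%. The C57BL/6J control library 1 and Txnip library 2 stood apart by rhodopsin (6896 and 6202 CPM, against 351 to 995 CPM in the BALB/c libraries) and by the Müller glia marker Rlbp1 (128 and 101 CPM). Ganglion markers took 0.0312% to 0.0967% of counts in the BALB/c libraries and 0.00186% to 0.0109% in the C57BL/6J libraries, without overlap. In sorted samples of this kind, fewer cells of a type and less RNA per cell cannot be told apart.

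All 10 clock genes were detected in every library. On the scale of CPM per kilobase of exon, which allows genes to be compared, Nr1d1 was the highest of the 10 in all 4 groups, at 56.3 ± 10.6 in BALB/c control cones (SD, n = 6), 53.6 ± 6.70 in BALB/c Txnip cones (n = 6), 78.3 ± 11.5 in C57BL/6J control cones (n = 3) and 78.1 ± 8.50 in C57BL/6J Txnip cones (n = 3). Its libraries lay above those of the next gene without overlap in each group. Averaged over the 18 libraries Nr1d1 ranked 668 of 14751 genes tested. In BALB/c control cones there followed Nr1d2 (19.1 ± 3.36), Per1 (18.9 ± 3.41), Cry1 (14.7 ± 4.78), Cry2 (14.1 ± 1.61), Arntl (12.6 ± 1.17), Per3 (11.995 ± 1.86) and Dbp (9.01 ± 1.58), where each gene overlapped its neighbour in the order. Clock (3.21 ± 0.63) lay below Dbp, and Per2 (1.11 ± 0.26) below Clock, both without overlap. Clock and Per2 were thus the lowest of the 10, and ranked 9011 and 9939 of 14751 genes over all libraries.

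The order was not the same in the C57BL/6J libraries. There Per3 was second, at 33.7 ± 6.54 CPM per kilobase in control cones and 36.2 ± 2.11 in Txnip cones (SD, n = 3 each), clear of Cry2 as the third (19.3 ± 6.00 and 19.5 ± 3.37). Cry1, Per1 and Arntl overlapped their neighbours in the order of the control cones, and Nr1d2 (13.4 ± 0.907) lay above Dbp (10.7 ± 1.03). Per2 (5.11 ± 1.95 and 5.32 ± 2.49) and Clock (2.92 ± 0.84 and 3.60 ± 0.80) were again the lowest, now with Per2 above Clock in mean and overlapping it. Per2 rested on few counts in BALB/c, 8 to 25 per control library and 6 to 70 per Txnip library, against 53 to 168 per C57BL/6J library. Its spread in BALB/c control cones (a CV of 23.9%) was close to the 24.3% that counting alone gives at its mean count.

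**Figure D1:**
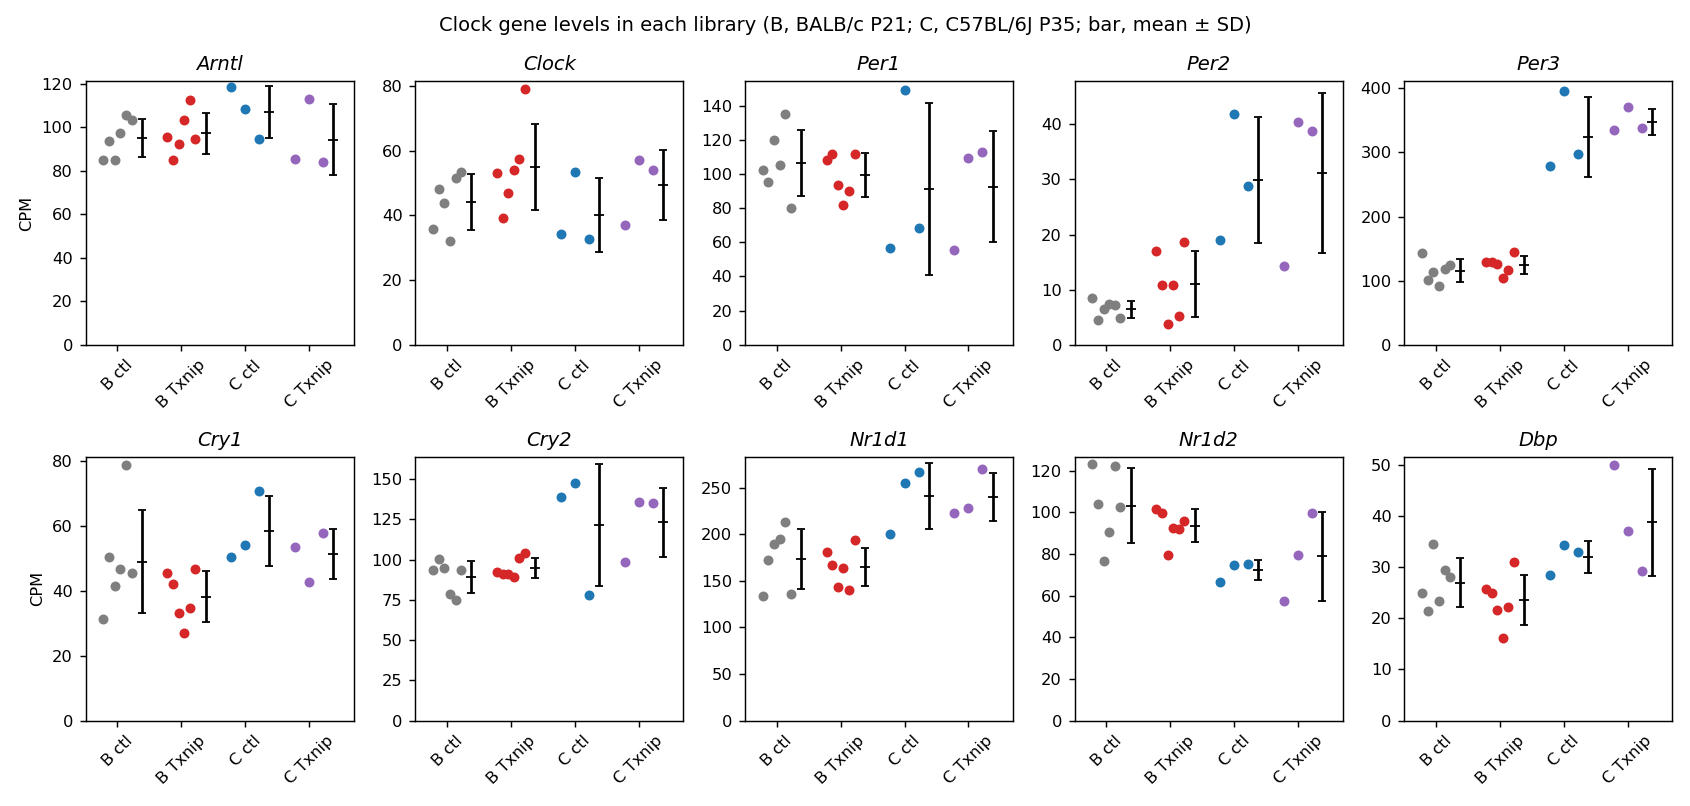
CPM of each clock gene in the 18 libraries (points), by group, with the mean ± SD as a bar beside the points. Per3 is the gene whose C57BL/6J libraries (279 to 396 CPM) all sit above the BALB/c libraries (91.6 to 144 CPM).

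The first question was whether the clock genes differ between C57BL/6J cones at P35 and BALB/c cones at P21. They were compared in control cones and, on other libraries, in Txnip cones, with 1 edgeR fit of all 4 groups. Per2 and Per3 were higher in C57BL/6J in both comparisons, Nr1d1 was modestly higher in both, Nr1d2 was lower in control cones, and Dbp was higher in Txnip cones. Neither activator passed the test. In control cones 3 of the 10 genes were called higher, where 8.03% of all tested genes were, and 1 was called lower, where 9.52% were. In Txnip cones 4 were called higher against 8.24% of all genes, and 0 lower against 9.38%; no clock gene was called lower there by DESeq2 either. The median log2 difference (C57BL/6J minus BALB/c) of the 10 genes was 0.24 in control cones and 0.41 in Txnip cones, and that of all tested genes was -0.0012 and 0.051. The median size regardless of sign was 0.35 and 0.41 for the clock genes and 0.38 for all genes in each comparison.

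Per3, a member of the Period family with a smaller part in keeping the loop running than Per1 and Per2, showed the clearest difference. Its level was 279, 396 and 297 CPM in the C57BL/6J control libraries and 335, 371 and 338 CPM in the C57BL/6J Txnip libraries. In BALB/c it was 91.6 to 143 CPM in control cones (median 116) and 104 to 144 CPM in Txnip cones (median 128). No C57BL/6J library overlapped a BALB/c library. The log2 difference was 1.49 (SE 0.14, adjusted p = 9.0e-08, 2.81-fold) in control cones and 1.48 (SE 0.14, adjusted p = 1.1e-07, 2.80-fold) in Txnip cones, which ranked 58 and 56 by p among the 14751 genes tested. It was the single gene of the 10 with all 6 C57BL/6J libraries above all 12 BALB/c libraries, as 3.41% of all tested genes were; none of the 10 lay below, as 4.46% of all genes did.

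Per2, whose protein is a core inhibitor of the activator pair, was at 19.1, 41.9 and 28.8 CPM in C57BL/6J control cones and at 14.4, 40.4 and 38.8 CPM in C57BL/6J Txnip cones. BALB/c control cones lay lower without overlap, from 4.53 to 8.49 CPM (median 6.78). BALB/c Txnip cones reached from 3.83 to 18.6 CPM (median 10.8), so that 1 C57BL/6J Txnip library fell inside their range. The log2 difference was 2.21 (SE 0.39, adjusted p = 2.9e-04) in control cones and 1.54 (SE 0.38, adjusted p = 0.0065) in Txnip cones. Per1, which like Per2 inhibits the activator pair, gave log2 differences of -0.22 (95% interval -0.74 to 0.30) and -0.10 (-0.62 to 0.42). The C57BL/6J libraries spread widely, at 56.6, 149 and 68.5 CPM in control cones, and the value rested on the second of them: without it the log2 difference was -0.79 (SE 0.24, adjusted p = 0.026), and without the first it was 0.012.

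The cryptochromes, partners of the Period proteins, did not pass the test. Cry2 was at 139, 148 and 78.2 CPM in C57BL/6J control cones and at 74.7 to 100.2 CPM in BALB/c control cones, so 1 C57BL/6J library lay among the BALB/c libraries. Its log2 difference was 0.45 (SE 0.16, adjusted p = 0.064) in control cones and 0.39 (SE 0.17, adjusted p = 0.12) in Txnip cones; without C57BL/6J control library 3 it was 0.69 (adjusted p = 0.004). Cry1 differed by 0.25 (95% interval -0.21 to 0.70) and 0.44 (-0.024 to 0.90).

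The REV-ERB genes differed in opposite directions in control cones. Nr1d1 was at 201, 255 and 267 CPM in C57BL/6J and at 134 to 213 CPM (median 181) in BALB/c, overlapping in 1 C57BL/6J library. Its log2 difference was 0.48 (SE 0.15, adjusted p = 0.036) in control cones and 0.55 (SE 0.15, adjusted p = 0.016) in Txnip cones. Nr1d2 was at 66.6, 74.8 and 75.4 CPM in C57BL/6J control cones, below the 76.5 to 123 CPM (median 103) of BALB/c, and its log2 difference was -0.51 (SE 0.17, adjusted p = 0.038). In Txnip cones Nr1d2 spread from 57.2 to 99.9 CPM in C57BL/6J and gave -0.24 (SE 0.17, adjusted p = 0.35). These calls were close to the threshold. In control cones the call of Nr1d1 was lost without BALB/c library 1, 2 or 6 or C57BL/6J library 2 or 3 (log2 difference 0.39 to 0.47), and that of Nr1d2 without BALB/c library 1, 2 or 5 or any of the 3 C57BL/6J libraries (-0.56 to -0.47). In Txnip cones the call of Nr1d1 was lost without C57BL/6J library 3 (0.45, adjusted p = 0.11). Nr1d1 shares 263 exonic bases, 8.55% of its exons, with Thra, a thyroid hormone receptor gene on the other strand, and a pair in that stretch was counted for both. Thra itself was higher in C57BL/6J control cones by 0.65 (SE 0.21, adjusted p = 0.036), at 52.9 ± 17.9 against 33.8 ± 5.66 CPM, and gave 0.32 (adjusted p = 0.34) in Txnip cones.

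Dbp was at 49.9, 37.1 and 29.3 CPM in C57BL/6J Txnip cones and at 16.1 to 31.0 CPM (median 23.5) in BALB/c Txnip cones. Its log2 difference there was 0.73 (SE 0.20, adjusted p = 0.013), and without C57BL/6J Txnip library 1 it was 0.50 (adjusted p = 0.14). In control cones Dbp was at 28.5, 34.4 and 33.0 CPM in C57BL/6J and 21.5 to 34.5 CPM in BALB/c, a log2 difference of 0.24 (SE 0.20, adjusted p = 0.46). The exons of Dbp share 539 bases, 18.01% of their length, with Sphk2 on the other strand, which was at 30.1 ± 3.50 to 37.3 ± 5.78 CPM over the 4 groups and differed by -0.26 and 0.0036 in the same comparisons. The activators did not pass the test. Arntl, at 84.0 to 119 CPM in C57BL/6J and 84.8 to 112 CPM in BALB/c, differed by 0.17 (95% interval -0.11 to 0.45) and -0.043 (-0.32 to 0.24). Clock, at 32.7 to 57.3 CPM and 32.1 to 79.0 CPM, differed by -0.15 (-0.60 to 0.30) and -0.12 (-0.56 to 0.33).

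**Figure D2:**
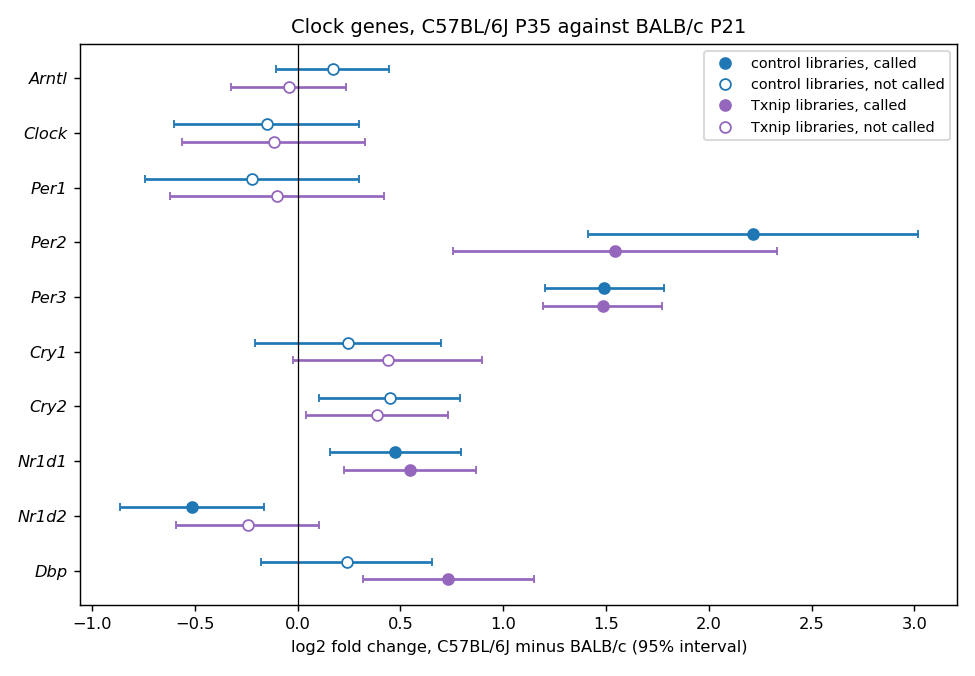
Log2 fold change of each clock gene between C57BL/6J P35 and BALB/c P21 libraries (x axis) with its 95% interval, in control libraries (3 against 6) and Txnip libraries (3 against 6). Filled points passed an adjusted p of 0.05; Per2 and Per3 lie above 1 in control and Txnip libraries, and the activators lie near 0.

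Markers of other cells moved with these groups. All 6 ganglion markers tested were lower in C57BL/6J control cones (median log2 difference -2.91), as were 4 of 6 amacrine markers (median -1.51), beside 9.52% of all tested genes. Of the rod markers 4 of 9 were higher (median 1.596), beside 8.03% of all tested genes. With the log2 share of ganglion markers as a covariate, an alternative added after seeing the data, 0 clock genes were called in either comparison. The count of all genes called fell as well, to 335 of 14751 in control cones and 286 of 14751 in Txnip cones. Per3 then differed by 0.92 (SE 0.32, adjusted p = 0.16) in control cones and by 0.95 (SE 0.31, adjusted p = 0.14) in Txnip cones, and Per2 by 1.46 (SE 0.98) and 0.87 (SE 0.92). Nr1d1 was at 0.15 (SE 0.38) and 0.24 (SE 0.36), Nr1d2 at -0.78 (SE 0.41) and -0.50 (SE 0.39), and Dbp at -0.14 (SE 0.51) and 0.37 (SE 0.49). Other values grew under this covariate without passing: Clock was at -1.07 (SE 0.48, adjusted p = 0.30) and -0.98 (SE 0.45, adjusted p = 0.35), and Per1 at -1.25 (SE 0.60, adjusted p = 0.36) and -1.01 (SE 0.54, adjusted p = 0.45). Arntl was at 0.47 (SE 0.31) in control cones and at 0.25 (SE 0.31) in Txnip cones, and Cry1 turned to -0.35 (SE 0.53) and -0.14 (SE 0.52). Because this share did not overlap between the strains, it and the strain cannot be told apart. Without the 2 rhodopsin-rich libraries Per2, Per3 and Nr1d1 remained called in control cones, and those 3 with Dbp in Txnip cones.

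Other genes of the loop were compared in the same fit. Of 21 listed, 17 were tested, and the others had too few counts. In control cones 3 were called higher and 1 lower in C57BL/6J, beside 8.03% and 9.52% of all tested genes, and in Txnip cones 3 higher and 2 lower, beside 8.24% and 9.38%, with a median log2 difference of -0.038 and -0.023. Tef, which encodes a D-box factor of the same family as Dbp, was at 72.6 to 102 CPM in the 12 BALB/c libraries and at 215 to 253 CPM in the 6 C57BL/6J libraries, without overlap. Its log2 difference was 1.41 (SE 0.11, adjusted p = 9.9e-09) in control cones and 1.45 (SE 0.11, adjusted p = 6.2e-09) in Txnip cones. Csnk1e, a kinase of the Period proteins, was higher by 0.84 (adjusted p = 0.014) and 0.95 (adjusted p = 0.0060), and Btrc, part of a ubiquitin ligase, by 0.57 (adjusted p = 0.034) and 0.65 (adjusted p = 0.016). Bhlhe40, a repressor at E-boxes, was lower by -3.19 (adjusted p = 2.9e-05) and -2.19 (adjusted p = 4.7e-04), on a mean of 5.33 and 13.7 counts per C57BL/6J library. Gsk3b, another kinase of clock proteins, was lower in Txnip cones by -0.61 (adjusted p = 0.015). With the ganglion share as a covariate Tef stayed called in both comparisons, while Csnk1e, Btrc, Bhlhe40 and Gsk3b lost their calls and Btrc turned to -0.046 in control cones. Without C57BL/6J control library 2, Btrc differed by 0.23 (adjusted p = 0.39) there. Its call in control cones was also lost without C57BL/6J library 3 or BALB/c library 1, 3, 5 or 6, and in Txnip cones without C57BL/6J library 2 or 3. The call of Csnk1e was lost without C57BL/6J control library 3 or C57BL/6J Txnip library 1, and that of Gsk3b without C57BL/6J Txnip library 3. Rora and Rorb, whose receptors activate Arntl, were at 288 to 409 and 67.3 to 293 CPM in C57BL/6J and at 297 to 399 and 138 to 206 CPM in BALB/c, and were not called.

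The second question was whether Txnip changed the clock genes within a strain. None of the clock genes was called. In BALB/c the count was 0 of 10, against 0.0166% of all tested genes, and in C57BL/6J it was again 0 of 10, against 0.0154%. DESeq2 also called 0 of 10 in each strain. At an unadjusted p under 0.05 there was 1 clock gene among the BALB/c results, Per2, and 0 among those of C57BL/6J. The same threshold was met by 1372 of all 12017 genes tested in BALB/c and by 97 of 12974 in C57BL/6J. Per2 had a median of 6.78 CPM in BALB/c control cones and 10.8 CPM in BALB/c Txnip cones; the Txnip libraries lay on both sides of the controls, and the log2 difference (Txnip minus control) was 0.72 (SE 0.34, 95% interval 0.0089 to 1.44, adjusted p = 0.43). Cry1 had a median of 46.0 CPM in control cones and 38.2 CPM in Txnip cones, a log2 difference of -0.38 (SE 0.19, interval -0.77 to 0.0058, adjusted p = 0.44). Without BALB/c Txnip library 1 the Per2 value was 0.46, and without BALB/c control library 5 the Cry1 value was -0.18. For the other 8 genes the BALB/c differences ran from -0.22 in Dbp to 0.25 in Clock, and the 95% intervals from -0.57 to 0.58. Arntl was the closest to 0 (0.018, interval -0.18 to 0.21). Amacrine markers took 0.0279% to 0.0362% of counts in BALB/c control libraries and 0.0379% to 0.0518% in BALB/c Txnip libraries, without overlap. Of the 5 amacrine markers tested, 0 were called. Whether this share bears on the clock gene values was not tested.

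In C57BL/6J the differences ran from -0.19 in Cry1 and Arntl to 0.30 in Clock and 0.27 in Dbp, all with an adjusted p of 1.00. The intervals were wider, since 3 libraries stood against 3 and the biological coefficient of variation was 34.3% against 18.02% in BALB/c. The widest were those of Per2 (-0.91 to 1.03) and Per1 (-0.90 to 0.94), and the narrowest that of Nr1d1 (-0.47 to 0.46). The effect of Txnip was called as different between the strains for 0 of the 10 genes, and for 0% of all genes. DESeq2 also called 0 of the 10. At an unadjusted p under 0.05 there were 0 clock genes, beside 706 of all 14751 genes tested. Per2 (-0.67, interval -1.83 to 0.49) and Dbp (0.50, -0.10 to 1.09) gave the largest differences of the 10. With 1 library left out these ran from -0.90 to -0.33 for Per2, which was nearest 0 without C57BL/6J Txnip library 1, C57BL/6J control library 2 (-0.35) or BALB/c Txnip library 1 (-0.40), and from 0.26 to 0.66 for Dbp, which was lowest without C57BL/6J Txnip library 1.

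**Figure D3:**
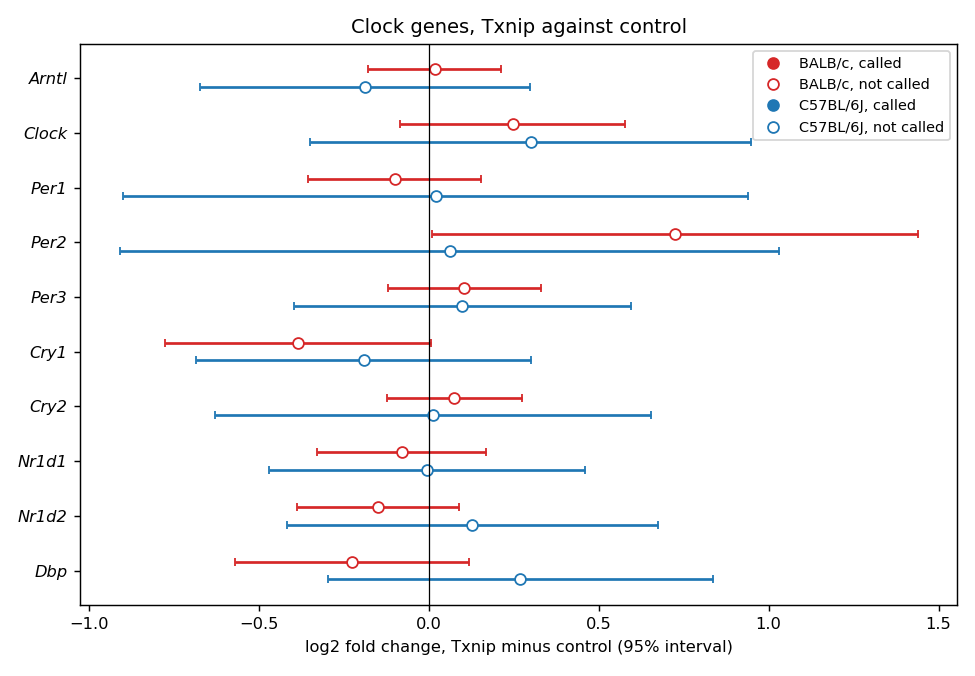
Log2 fold change of each clock gene between Txnip and control libraries (x axis) with its 95% interval, in BALB/c (6 against 6) and C57BL/6J (3 against 3). No gene passed an adjusted p of 0.05, and the C57BL/6J intervals are the wider ones.

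A single number per library was used to set the activators against the genes of opposite phase: the mean log2 CPM of Arntl and Clock minus that of Per1, Per2, Per3, Nr1d1, Nr1d2 and Dbp. It is a description with no test, and it is not a phase. The index was 0.14 ± 0.25 in BALB/c control cones (SD, n = 6, range -0.16 to 0.49) and 0.28 ± 0.30 in BALB/c Txnip cones (n = 6, -0.14 to 0.65). It was -0.42 ± 0.25 in C57BL/6J control cones (n = 3, -0.62 to -0.13) and -0.45 ± 0.14 in C57BL/6J Txnip cones (n = 3, -0.61 to -0.34). The strains overlapped by 1 library in control cones and did not overlap in Txnip cones. The gap between strains was -0.56 in control cones. Without Per2 and Per3, which were left out because their differences had been seen to be the largest, so that the gap had to shrink, it was 0.035, where the BALB/c mean was -0.38 and the C57BL/6J mean -0.35. The other genes differed in both directions. In Txnip cones the gap was -0.73, and -0.30 without those 2 genes. Arntl against Dbp alone gave 1.80 ± 0.29 and 1.72 ± 0.28 in the control cones of BALB/c and C57BL/6J, within the spread between libraries, and 2.03 ± 0.39 and 1.28 ± 0.45 in the Txnip cones. Arntl against Per3 gave -0.27 ± 0.29 and -1.58 ± 0.32 in the control cones and -0.36 ± 0.27 and -1.89 ± 0.16 in the Txnip cones. Arntl against Nr1d1 gave -0.85 ± 0.28 and -1.16 ± 0.37, then -0.76 ± 0.27 and -1.35 ± 0.34.

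**Figure D4:**
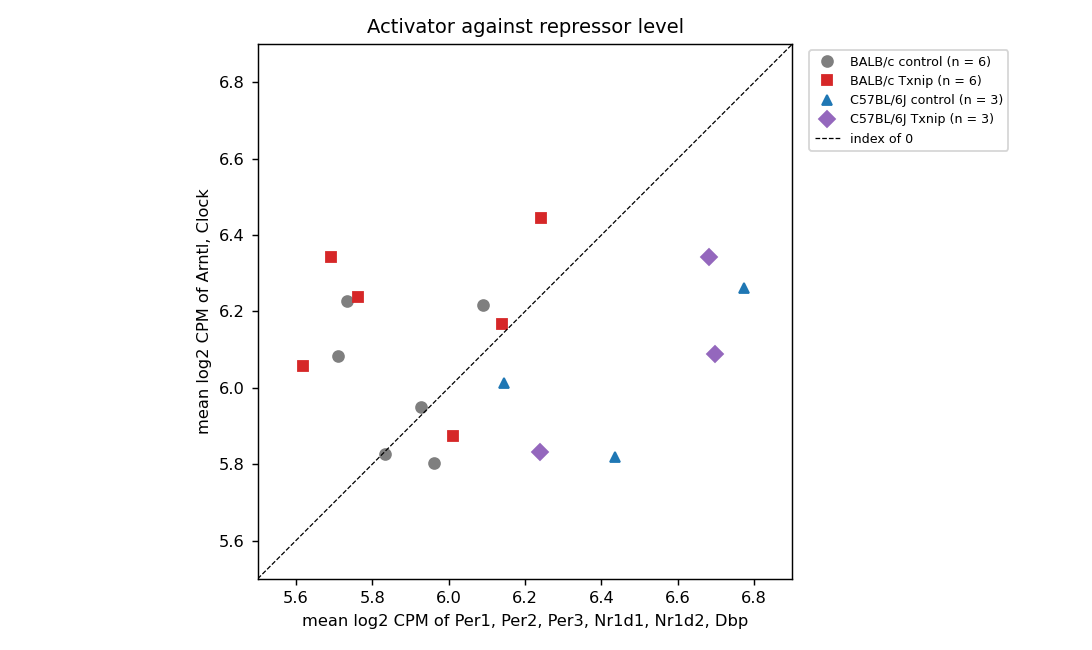
Mean log2 CPM of Arntl and Clock (y axis) against that of Per1, Per2, Per3, Nr1d1, Nr1d2 and Dbp (x axis) in each of the 18 libraries; the dashed line marks an index of 0. The 6 C57BL/6J libraries lie to the right of the line, with an index from -0.62 to -0.13. The BALB/c libraries lie on both sides of it, most of them to its left, with an index from -0.16 to 0.65.

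The last question was whether clock genes varied together between libraries of the same group. It was asked in the 12 BALB/c libraries on log2 CPM minus the group mean, for 45 pairs, with two-sided permutation within groups. Of the 45 Pearson coefficients 30 were above 0, and 6 had an unadjusted p under 0.05, all of them positive. None passed adjustment over the 45 pairs. Per1 and Nr1d1 gave the highest, r = 0.74 (permutation p = 0.015, adjusted 0.33) and Spearman rho = 0.78 (permutation p = 0.010, adjusted 0.27), and r = 0.53 without the 2 libraries farthest from the median of Per1. Cry1 and Nr1d1 followed with r = 0.69 (permutation p = 0.022, adjusted 0.33), rho = 0.70 (permutation p = 0.018, adjusted 0.27) and r = 0.40 without 2 libraries. Per1 and Dbp gave r = 0.64 (permutation p = 0.027, adjusted 0.33), rho = 0.72 (permutation p = 0.013, adjusted 0.27) and r = 0.91 without 2 libraries. Arntl gave r = -0.28 with Dbp, -0.33 with Per1, -0.24 with Per2, -0.39 with Per3 and -0.016 with Nr1d1, and r = 0.16 with Nr1d2, 0.24 with Cry1, -0.23 with Cry2 and 0.46 with Clock. In control and Txnip libraries on their own the sign was the same for 25 of the 45 pairs. Of the 6 Txnip libraries alone, 2 pairs passed adjustment of the exact permutation p of r, Per1 with Per3 (r = 0.90, adjusted p = 0.031, rho = 1.00, adjusted p = 0.063) and Cry1 with Dbp (r = 0.96, adjusted p = 0.031, rho = 1.00, adjusted p = 0.063), and 0 pairs in the control libraries; there the same pairs gave r = -0.071 and 0.12. Without the 2 libraries farthest from the median, the Txnip values were r = 0.54 and 1.00.

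**Figure D5:**
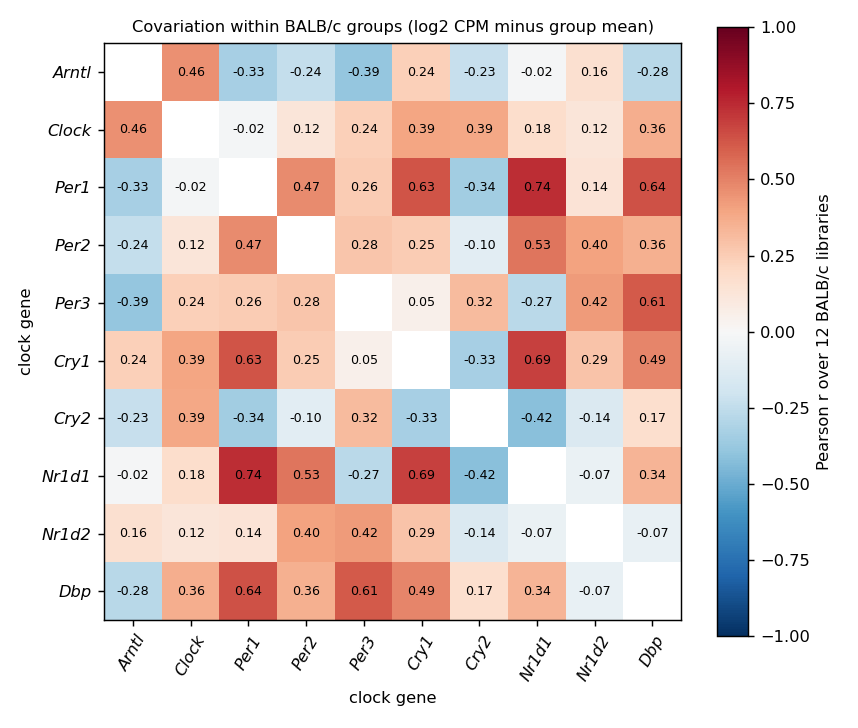
Pearson r for each pair of clock genes over the 12 BALB/c libraries, on log2 CPM minus the group mean (colour scale from -1 to 1, with the value in each cell). The highest values are those of Per1 with Nr1d1 (0.74), Cry1 with Nr1d1 (0.69), Per1 with Dbp (0.64) and Per1 with Cry1 (0.63). Per3 with Dbp (0.61) and Per2 with Nr1d1 (0.53) follow. Arntl is below 0 with the Per genes and Dbp.

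Each clock gene was also set against the summed level of 11 immediate early genes, which cells switch on within minutes of a stimulus, and against the library total; these 2 families of 10 relations were added after seeing the data. The immediate early sum ran from 536 to 1919 CPM in the BALB/c libraries. Nr1d1 rose with it, with rho = 0.83 (permutation p = 0.0032, adjusted 0.032). Its r = 0.75 did not pass (permutation p = 0.013, adjusted 0.13) and was 0.67 without 2 libraries. The share of all genes that follow the sum this closely was not measured. Per1 gave r = 0.63 (permutation p = 0.042, adjusted 0.21) and rho = 0.68 (permutation p = 0.031, adjusted 0.15), with r = 0.69 without 2 libraries. Arntl gave r = -0.33 (permutation p = 0.30, adjusted 0.44; rho = -0.23, permutation p = 0.49) and Clock r = -0.054. No clock gene was related to the library total (lowest adjusted p 0.96 for r and 0.84 for rho), where Cry2 gave r = -0.42. The C57BL/6J groups of 3 were too small for a correlation. In their control cones Per1, Per2 and Per3 were all highest in library 2, by 0.83, 0.54 and 0.31 on the log2 scale above the group mean. Clock (0.44), Cry2 (0.33) and Dbp (0.11) were highest there too. Arntl was highest in library 1, and Cry1, Nr1d1 and Nr1d2 in library 3. In their Txnip cones Per1 and Per2 were lowest in library 1, by -0.67 and -0.94. Clock (-0.39), Nr1d2 (-0.42), Cry2 (-0.30), Nr1d1 (-0.10) and Per3 (-0.053) were lowest there too, while Dbp was highest, by 0.39. Arntl was lowest in library 3 and Cry1 in library 2.

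The genes whose pattern was most like that of Dbp and Arntl were sought among 9875 genes of at least 10 CPM, over the 18 libraries on log2 CPM minus the group mean. These coefficients are descriptions; the libraries share depth and makeup, and the highest of 9875 values is high by selection. The 18 include the 2 rhodopsin-rich C57BL/6J libraries, in which Arntl was the highest of its group, at 119 and 113 CPM. Dbp was most like 9530085L11Rik (r = 0.81), Rex1bd (0.79), Gm26524 (0.78), Alas1 (0.77), the first enzyme of heme synthesis, and Il11ra1 (0.74), a cytokine receptor. Per3 ranked 270 in that order (r = 0.50), Cry1 735, Nr1d1 2391 and Nr1d2 9089 (r = -0.35). Arntl was most like Orai2 (r = 0.79), a calcium channel subunit, Ndrg1 (0.78), Myo9a (0.76), Cntn4 (0.76) and Tjp1 (0.75), a tight junction protein. Clock, its partner, ranked 619 (r = 0.42), and Dbp ranked 6669 (r = -0.22).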

How the data were processed

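Cones of 18 retinas were profiled. The authors aligned reads with STAR (version not given in the sources used here) and used featureCounts 1.6.2 with Ensembl 94 exons (GRCm38.p6 per the labels) to count read pairs for each gene, without strand, leaving out chimeric pairs and counting a pair for every gene it overlapped. These deposited counts are raw and were used as they stand; 123 identifiers had no symbol. The tables of the authors' own comparisons (fold changes and p-values) were not used.

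Genes were kept by filterByExpr, scaled by TMM and tested by quasi-likelihood (glmQLFit, then glmQLFTest) in edgeR 4.0.16 (R 4.3.3), with Benjamini-Hochberg adjustment over all genes tested and a threshold of 0.05. The effect of Txnip was fitted in each strain on its own, and the differences between strains in 1 fit of the 4 groups. Replicate numbers are those of the labels. CPM are on TMM library sizes, and log2 CPM have a prior count of 2; intervals are 95%. Correlations used 100000 within-group resamples, or all permutations for 6 libraries. At the depths found, 3 counts were worth 0.58 to 4.63 CPM. Libraries of a group differed by more than sampling noise (smallest chi-square per degree of freedom 1.83 over 36 pairs).

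All 10 clock genes are named. From the lists of other loop genes, rhythmic outputs, immediate early and glucocorticoid genes and cell markers, up to 5 called genes per comparison were to be named, largest change first, with genes overlapping a clock gene and the 5 genes most like Dbp and Arntl. The clock genes and lists were chosen with earlier results of these data known. Alternatives were DESeq2 1.42.0, its size factors, genes of the mitochondria and ribosomal RNA locus left out, 2 filters on low counts, the replicate number as a block, rod and ganglion shares as covariates, fewer groups and each library left out. The fits were tested on simulated counts before use, where the C57BL/6J comparison of Txnip with control missed most changes of every size simulated and the strain comparisons missed most of the smaller ones.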

Additional observations from a re-analysis of the deposited data

How the results depend on the processing

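Across the alternatives, 1203 of 1340 values of single genes kept their direction and their side of the threshold, 96 lost the call, 2 gained one and 39 turned sign. For the difference between strains in the Txnip effect these values covered Per2 and Dbp only, and those of the other clock genes were not counted. Of 133 counts and index values, 123 stayed within 1.5 times (counts) or 1 SD between libraries (index), 9 moved further and 1 turned sign. No clock gene was called for Txnip, or for its difference between strains, under any setting run. In control cones the count of clock genes called fell from 4 to 2 with all genes of at least 1 count, to 2 with the replicate block (both times Nr1d1 and Nr1d2 were lost) and to 0 with the ganglion share. It was 3 with the rod share, with the rod share without Sag and without the rhodopsin-rich libraries (Nr1d2 lost), with only the 2 groups compared (Nr1d1 lost) and with at least 10 counts in every library (Per2 not tested), and 2 to 4 with 1 library left out. In Txnip cones it fell to 0 with the ganglion share, to 3 with the replicate block (Dbp lost) and to 3 with at least 10 counts in every library, where Per2 was not tested, and it was 3 to 4 with 1 library left out. The replicate numbers did not pair the libraries: same-numbered libraries correlated at -0.15 to 0.19 in 6 BALB/c pairs and -0.06 to 0.09 in 3 C57BL/6J pairs, and 0 of each correlated best with its own number. The block took the count of all genes called in control cones from 2588 to 1645. The gap between strains in the activator against repressor index, control cones, was -0.078 for Arntl against Dbp and 0.035 without Per2 and Per3, and in the activator against repressor index, Txnip cones, it was -0.30 without those genes. The Txnip libraries alone gave 2 pairs past adjustment.

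Several values turned sign. For Txnip in C57BL/6J, Per1 and Cry2 were both -0.023 with all genes of at least 1 count, and Nr1d1 was 0.0029 with at least 10 counts and 0.0047 with the rod share without Sag. Between strains, Per1 was 0.083 (rod share) and 0.0076 (rod share without Sag) in Txnip cones and 0.011 in control cones without the rhodopsin-rich libraries, and Arntl was 0.046 with the block in Txnip cones. With the ganglion share, Cry1 was -0.35 and -0.14, Dbp -0.14 and Btrc -0.046 in control cones (the second Cry1 value in Txnip cones), and Arntl 0.25, Drd4 0.21 and Ppargc1a -0.082 in Txnip cones. With 1 library left out, the Txnip effect ran from -0.023 to 0.055 for Arntl in BALB/c. In C57BL/6J it ran from -0.23 to 0.57 for Per1, -0.19 to 0.41 for Per2, -0.23 to 0.18 for Cry2, -0.13 to 0.062 for Nr1d1 and -0.11 to 0.33 for Nr1d2. Between strains it ran from -0.79 to 0.012 for Per1 in control cones, and in Txnip cones from -0.20 to 0.031 for Arntl, -0.24 to 0.054 for Clock and -0.28 to 0.16 for Per1. The cause was not tested.

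Counts over all genes moved more. The 2 genes called for Txnip in BALB/c became 76 by DESeq2, 1400 with all genes of at least 1 count, 0 with at least 10 counts, and 23, 258 and 6 without control library 1 and Txnip libraries 1 and 2. In C57BL/6J the 2 became 5 and 0 under the same filters, and the 0 genes of the difference between strains became 186 with at least 1 count and 1 without C57BL/6J control library 1. Between strains the 2588 and 2599 genes became 1507 and 1475 with at least 10 counts and 335 and 286 with the ganglion share, and 1605 in control cones without C57BL/6J control library 3.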

Other observations

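Of 10 immediate early genes tested, 5 were lower in C57BL/6J control cones and 1 was higher, beside 9.52% and 8.03% of all tested genes, with a median log2 difference of -1.57 (C57BL/6J minus BALB/c). The lower ones were Ier2 (-1.87, edgeR adjusted p = 0.038), Atf3 (-1.72), Junb (-1.43), Jun (-1.38) and Nr4a1 (-0.93), and the higher one was Btg2 (0.60). In Txnip cones 3 were lower, Atf3 (-1.54), Jun (-1.18) and Nr4a1 (-0.99), and Btg2 was higher (0.54), beside 9.38% and 8.24% of all tested genes. With the ganglion share as a covariate Nr4a1 alone of these kept its calls (-2.07 in each comparison). The Btg2 value was 0.32 (adjusted p = 0.25) without C57BL/6J control library 3 and 0.26 (adjusted p = 0.32) without C57BL/6J Txnip library 1, and its Txnip-cone call was also lost without C57BL/6J library 3 or BALB/c library 1 or 5. Without C57BL/6J control library 1, Nr4a1 lost its call (-0.70) and Atf3 was at -2.63. The call of Ier2 was lost without any of the 3 C57BL/6J control libraries or BALB/c control library 2, 3, 4 or 5. Of 4 glucocorticoid responsive genes tested, 2 were lower in each comparison and 1 was higher in control cones, beside the same shares of all tested genes. Sgk1, a kinase gene, was lower by -1.26 and -1.75 in control and Txnip cones, and Tsc22d3 by -0.81 and -0.85. Fkbp5, a chaperone of steroid receptors, was higher by 1.59 in control cones (edgeR adjusted p = 0.0038) and at 0.92 did not pass in Txnip cones (adjusted p = 0.098). All calls of these 3 genes were lost with the ganglion share, and that of Fkbp5 also without C57BL/6J control library 3.

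Of 6 rhythmic photoreceptor outputs tested, 2 were called lower in control cones, and 1 lower and 1 higher in Txnip cones. Beside them stood 9.52% of all tested genes lower in control cones, and 9.38% lower and 8.24% higher in Txnip cones. Drd4, a dopamine receptor gene of photoreceptors, was lower by -1.56 in control cones and -1.001 in Txnip cones. Nampt, an enzyme of NAD synthesis, was lower by -0.77 in control cones, and Ppargc1a, a coactivator of mitochondrial genes, was higher by 0.45 in Txnip cones. With the ganglion share these calls were lost, and in Txnip cones Drd4 turned to 0.21 and Ppargc1a to -0.082. Those 2 Txnip-cone calls were also lost without C57BL/6J library 3, that of Ppargc1a without BALB/c library 1 or 2, and that of Nampt without C57BL/6J control library 1 or 2 or BALB/c control library 5. Among the other cell markers, 2 of 5 Müller glia markers were called higher in each comparison, Rlbp1 and Glul in control cones and Rlbp1 and Slc1a3 in Txnip cones. In Txnip cones these markers took 0.00341%, 0.0460% and 0.00332% of counts in C57BL/6J libraries 1, 2 and 3, against 0.00804% to 0.0150% in BALB/c, so that library 2 alone lay above BALB/c. In control cones they took 0.0623%, 0.00203% and 0.0122%, against 0.00656% to 0.0150%, and library 1 alone lay above BALB/c. The share of all tested genes called higher was 8.03% and 8.24%. Of the RPE list 1 marker was tested, and it was lower in both. Cone markers were higher for 4 of 12 genes in control cones and 5 of 12 in Txnip cones, beside the same shares.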
